A study of Mus musculus with 48 samples.

Results

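Cisplatin was compared with PBS in subcapsular sinus macrophages (SSM) sorted from digested tumor-draining lymph nodes (TDLN) of mice. The comparison takes the libraries whose labels give this cell type, this node and either treatment, which are 6 of the 48 samples of the series, 3 given cisplatin and 3 given PBS. All 6 carry the genotype label Wild type, and PBS served as the control of the same node. Dose, day of harvest, strain, age and tumor line are not given in the sources used here. The labels do not say whether each library stands for its own animal, so p-values here measure only the spread between these libraries, which may be technical. The labels name sorted myeloid cells of digested nodes and give no surface markers for the sort. A further 6 SSM libraries came from nodes labelled LN, 3 after cisplatin and 3 after PBS, and are used here only to ask whether the cisplatin effect differed between nodes.

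SSM are CD169-positive macrophages under the capsule of the lymph node that take up particles, dying-cell material and viruses from incoming lymph and hand antigen to B cells. Cisplatin binds DNA and crosslinks its strands. Cells answer such lesions with the Fanconi anemia and excision repair pathways and with p53, and DNA or RNA that leaks from damaged cells can set off type I interferon, which acts through factors such as IRF9 on interferon-stimulated response elements.

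The library labelled cisplatin SSM 3 stood apart from the other two of its group. Over 7890 genes its log2 levels correlated at 0.7 and 0.695 with cisplatin SSM 1 and 2, which correlated at 0.993 with each other. It correlated at 0.991 and 0.992 with libraries 2 and 3 of the medullary sinus macrophages (MSM) of the same node and treatment, and MSM library 1 of that condition correlated at 0.993 with cisplatin SSM 1. The 3 PBS SSM libraries correlated at 0.982 to 0.994 with each other. With these PBS libraries cisplatin SSM 3 correlated at 0.85 to 0.861, and cisplatin SSM 1 and 2 correlated at 0.754 to 0.761. The PBS SSM libraries correlated at 0.852 to 0.861 with MSM libraries 2 and 3 under cisplatin. Cisplatin SSM 3 was thus nearer to PBS SSM than cisplatin SSM 1 and 2 were. These genes are not independent replicates and the values are a description. Counts of called list members in the TDLN are therefore given with all 3 cisplatin libraries and without cisplatin SSM 3. Folds of single genes are with all libraries, and the value without cisplatin SSM 3 stands beside those it moved by more than 1.5 times. Of the 98 named genes called with all libraries, 98 were also called without it, in the same direction. For the genes named by size this was a condition of the choice, so the count is no check of them. Total counts ran from 7517666 to 9973481 per library. Every pair of replicates differed by more than sampling noise, for which a mean chi-square of 1 per gene is expected. The value was 2.3 to 6.94 for pairs without cisplatin SSM 3, and 167 and 178 for the pairs with it. A sorted pool was sequenced in bulk, so fewer cells of a type and less RNA per cell cannot be told apart.

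The description of cisplatin SSM 3 is largest at Cd209b, the lectin SIGN-R1 of sinus macrophages, with 6842, 6530 and 3.51 counts per 1000000 (CPM) in cisplatin SSM 1, 2 and 3 and 35.4, 39.6 and 39.3 CPM in the PBS libraries. Cd209f, a related lectin, measured 409, 425 and 0 CPM in the cisplatin libraries. The Cd209 genes are close copies, and reads could be split between them. In the other direction Susd2 measured 0.23, 0.197 and 122 CPM in cisplatin 1, 2 and 3 and 104 to 119 CPM in the PBS libraries. Tnfrsf9, the costimulatory receptor 4-1BB, measured 0.115, 0 and 49.4 CPM in the same order and 49.2 to 54.0 CPM in PBS. For both of these genes cisplatin SSM 3 was near the PBS level. They were chosen for the distance of that library and carry no test.

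Checked against cell type markers, the label holds only in part. Lyz2, the lysozyme of myeloid cells, was at 7033 to 11118 CPM in the 6 libraries, and Csf1r, which macrophages need for survival, was at 379 to 939 CPM. Siglec1, which encodes the defining marker CD169, measured 176, 168 and 22.5 CPM under cisplatin but only 7.97, 12.8 and 14.1 CPM under PBS. Summed T cell markers lay at 4812 to 5024 CPM in the same PBS libraries and at 970.5, 966 and 4663 CPM under cisplatin. No gene of the macrophage identity list was at 0 in all libraries of a group. The summed MSM marker list lay at 10918, 10613 and 126.5 CPM under cisplatin and 383 to 398 CPM under PBS. The names of the groups are therefore those of the labels.

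With all libraries, 16886 genes were tested with edgeR's quasi-likelihood test, and 2203 (13%) were higher and 1680 (9.95%) lower under cisplatin at an adjusted p under 0.05. Of these, 1448 (8.58% of the tested genes) and 1144 (6.77%) changed at least 2-fold. Without cisplatin SSM 3, 4300 of 17980 genes (23.9%) were higher and 4510 (25.1%) lower. Of the 3883 genes called with all libraries, 3816 (22.6% of the tested genes) were called again in the same direction without cisplatin SSM 3 and 67 were not called, while 4994 genes were called only without it. Each of the 6 TDLN libraries, left out alone, moved both counts by more than 1.5 times, to 1025 higher and 793 lower at the least, without PBS 2. The cisplatin and PBS groups did not overlap at 42.6% of the tested genes with all libraries and at 78.7% without cisplatin SSM 3. The counts below are read against these shares. The median log2 fold change of all tested genes was 0.03 with all libraries and -0.02 without that library.

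**Figure D1:**
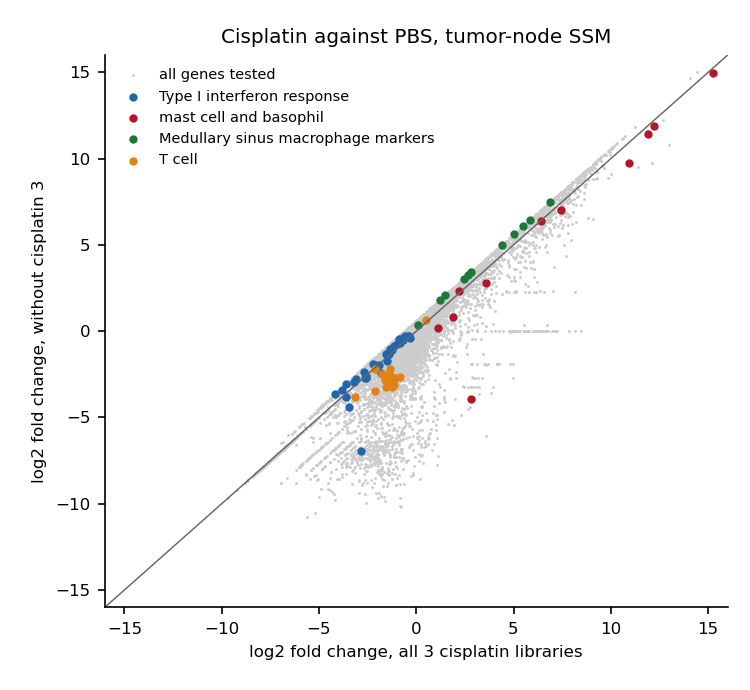
Log2 fold change of cisplatin over PBS for each tested gene with all 3 cisplatin libraries (horizontal axis) and without cisplatin SSM 3 (vertical axis), with the line of equality and 4 gene lists in colour. Type I interferon genes lie below 0 in both fits and most mast cell genes lie above 0 in both, while T cell genes move away from 0 when the library is left out.

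Type I interferon-induced genes were lower under cisplatin. Of 35 listed genes, all tested, 28 fell and 0 rose with all libraries, against 9.95% of all tested genes falling, and their median log2 fold change was -1.52. Without cisplatin SSM 3, 32 fell and the median was -1.36. The 3 cisplatin libraries lay below the 3 PBS libraries at 34 of the 35 genes, against 22.3% of all tested genes lying wholly below and 20.3% wholly above. The remaining gene was Ifi35, with 125, 110.4 and 92.6 CPM under cisplatin and 124.5, 152 and 151 CPM under PBS. The summed list measured 2139.9, 2104 and 1339 CPM under cisplatin and 5624, 5861 and 5889 CPM under PBS. Cisplatin SSM 3 thus lay on the same side of the PBS libraries as the other two, and lower than both in the sum.

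**Figure D2:**
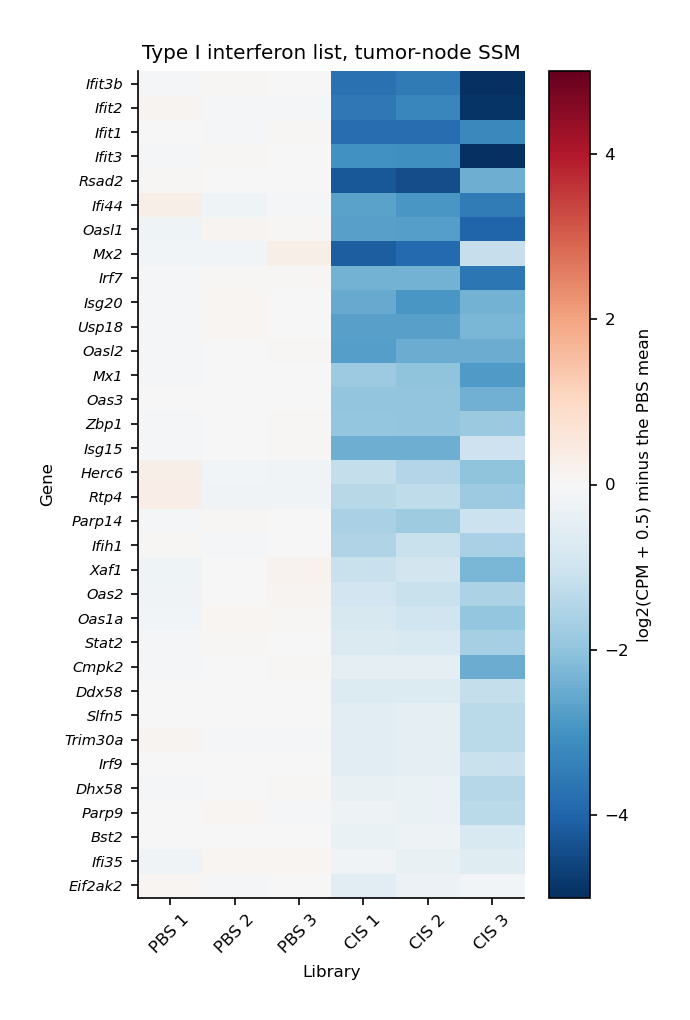
Level of 34 of the 35 type I interferon genes in the 6 libraries, as log2(CPM + 0.5) minus the mean of the 3 PBS libraries (colour, limited to 5 in either direction), with genes ordered by the fold change with all libraries. The 3 cisplatin columns are blue at nearly every gene, and Ifit3, Ifit3b and Irf7 are lowest in cisplatin SSM 3 while Rsad2, Mx2 and Isg15 are lowest in cisplatin SSM 1 and 2.

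Promoter sequences are shown for 4 of these genes because they hold the core of the interferon-stimulated response element, the site through which type I interferon acts. The motif searched was GAAANNGAAA on either strand, in the 250 bases before and 50 bases after the start of the gene, from RefSeq on GRCm38.p6. Of the 35 genes, 25 had a promoter in the table and 14 of them (56.0%) held the motif, against 3.99% of 27025 genes with a promoter. Of the 28 genes that fell with all libraries, 21 had a promoter and 12 of them (57.1%) held it, about the share of the whole list. The list is made of interferon-induced genes, so these shares carry no information on cisplatin. Capitals mark the motif, which reads TTTCNNTTTC where it lies on the other strand.
Ifih1 (chr2:62646206-62646505, minus strand): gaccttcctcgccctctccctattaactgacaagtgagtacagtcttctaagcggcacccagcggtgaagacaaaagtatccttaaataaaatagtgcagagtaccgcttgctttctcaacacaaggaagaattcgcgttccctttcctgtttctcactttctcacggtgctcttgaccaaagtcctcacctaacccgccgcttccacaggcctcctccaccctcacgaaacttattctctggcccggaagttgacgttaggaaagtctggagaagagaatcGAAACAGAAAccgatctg
Ifit1 (chr19:34640639-34640938, plus strand): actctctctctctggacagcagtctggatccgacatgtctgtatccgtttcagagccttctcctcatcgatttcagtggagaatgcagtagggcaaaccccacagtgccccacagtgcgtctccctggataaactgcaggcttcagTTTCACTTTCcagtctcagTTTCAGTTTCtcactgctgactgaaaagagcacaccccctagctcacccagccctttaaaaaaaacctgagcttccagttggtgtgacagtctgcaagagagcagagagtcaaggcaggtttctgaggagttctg
Oas3 (chr5:120777610-120777909, minus strand): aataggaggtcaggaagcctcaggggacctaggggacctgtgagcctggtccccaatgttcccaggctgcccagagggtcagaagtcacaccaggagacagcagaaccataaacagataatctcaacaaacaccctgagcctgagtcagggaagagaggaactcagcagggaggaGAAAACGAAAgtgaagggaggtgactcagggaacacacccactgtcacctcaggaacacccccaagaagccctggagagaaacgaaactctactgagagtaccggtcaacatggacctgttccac
Rsad2 (chr12:26456403-26456702, minus strand): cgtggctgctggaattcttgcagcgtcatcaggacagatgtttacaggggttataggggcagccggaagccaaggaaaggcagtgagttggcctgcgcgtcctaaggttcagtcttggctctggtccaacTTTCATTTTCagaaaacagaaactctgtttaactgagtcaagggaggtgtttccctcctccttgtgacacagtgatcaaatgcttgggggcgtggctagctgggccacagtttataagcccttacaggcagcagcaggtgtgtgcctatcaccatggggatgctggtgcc
The match begins 33 bases after the start of Ifih1, 104 and 85 bases before that of Ifit1, 75 bases before that of Oas3 and 120 bases before that of Rsad2. A match is a description of the sequence and was not tested as a binding site. These 4 genes were chosen after their values were seen.

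Among the sensors and effectors with these promoters, Ifih1, which encodes the RNA sensor MDA5, measured 17.8, 23.4 and 16.4 CPM under cisplatin and 53.3, 49.7 and 51.7 CPM under PBS. Ifit1, which blocks translation of viral RNA, measured 14.5, 14.5 and 22.0 CPM under cisplatin and 209, 200.2 and 220.4 CPM under PBS. Rsad2, the antiviral enzyme viperin, measured 9.32, 8.07 and 33.4 CPM against 189, 183 and 179 CPM. In all of them the groups did not overlap, with log2 fold changes of -1.42 ± 0.19 (SE; adjusted p = 0.00118), -3.62 ± 0.57 (adjusted p = 0.00258) and -3.44 ± 0.78 (adjusted p = 0.0125) in the same order. Without cisplatin SSM 3 the change of Rsad2 was -4.38. Oas3, which makes the 2-5A signal for RNA decay, changed by -2.12 ± 0.47 (adjusted p = 0.0110), with 15.02 to 20.7 CPM under cisplatin and 80.6 to 82.4 CPM under PBS. Oas and Ifit genes are families of close copies, and the share of reads each received could depend on how the authors' quantification split them.

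All 35 members had a negative fold change, so the direction of the 4 with the smallest p, given next, is no further support. Usp18 (ENSMUSG00000030107, chr6:121245906-121270917), a protease that strips ISG15 and damps the interferon receptor, measured 31.6, 31.5 and 42.6 CPM under cisplatin and 202.5, 225 and 207.5 CPM under PBS. Its log2 fold change was -2.59 ± 0.14 (adjusted p = 2.49e-05) and -2.73 without cisplatin SSM 3. Ifit2, a relative of Ifit1, measured 22.7, 27.8 and 8.55 CPM against 298, 263 and 261 CPM, a change of -3.80 ± 0.37 (adjusted p = 0.000303). Zbp1, a sensor of Z-form nucleic acid that can start necroptosis, was at 37.6, 36.8 and 39.9 CPM and 141, 144.5 and 151 CPM (-1.93 ± 0.22, adjusted p = 0.000544), and here the 3 cisplatin libraries were nearly level. Parp14, an ADP-ribosyltransferase induced by interferon, fell by 1.49 on the log2 scale (SE 0.18, adjusted p = 0.000607). Irf7, the factor that amplifies interferon production, measured 189, 187 and 78.8 CPM against 893, 1009 and 1007 CPM (-2.67 ± 0.38, adjusted p = 0.00168).

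Interferon gamma targets followed in part. Of 18 tested members 7 fell and 0 rose with all libraries, with a median log2 fold change of -0.69, and 11 of 19 fell and 4 rose without cisplatin SSM 3. Gbp6, a guanylate-binding protein that attacks pathogen vacuoles, measured 33.8, 32.2 and 73.7 CPM under cisplatin and 203, 205 and 195 CPM under PBS (-2.11 ± 0.36, adjusted p = 0.00363). Gbp2, of the same family, measured 116, 116 and 91.4 CPM against 223, 226 and 224 CPM (-1.06 ± 0.14, adjusted p = 0.00108). Cxcl9, the chemokine that draws CXCR3-bearing T cells, measured 18.5, 14.8 and 1.97 CPM against 64.9, 62.2 and 59.1 CPM (-2.40 ± 0.56, adjusted p = 0.0135). In each of these the groups did not overlap. Irf1, an early interferon gamma target, moved least, from 297 to 328 CPM under PBS to 218 to 231 CPM under cisplatin (-0.48 ± 0.10, adjusted p = 0.00878). MHC class I presentation genes, also induced by interferon, held 2 lower and 0 higher of 13 with all libraries and 9 lower and 3 higher without cisplatin SSM 3.

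The p53 targets did not move together. Of 29 tested, 4 rose and 7 fell with all libraries, against 13% and 9.95% of all genes, and 6 rose and 11 fell without cisplatin SSM 3. Plk2, a polo-like kinase and a p53 target, measured 229, 229 and 236 CPM under cisplatin and 130, 127 and 114.5 CPM under PBS, a log2 change of 0.90 ± 0.10 (adjusted p = 0.000496) that was 0.90 again without cisplatin SSM 3. Sesn2, a sestrin that restrains mTORC1, also rose (0.98 ± 0.28, adjusted p = 0.0306). It measured 40.6, 41.6 and 93.5 CPM against 25.3, 32.2 and 31.2 CPM, and its call was lost when any 1 PBS library was left out (highest adjusted p = 0.105, without PBS 1).

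Other p53 targets were lower. Apaf1, the scaffold of the apoptosome, measured 11.8, 16.4 and 20.1 CPM under cisplatin and 54.3, 47.0 and 43.6 CPM under PBS (-1.58 ± 0.18, adjusted p = 0.000505). Xpc, which recognises bulky lesions for excision repair, measured 31.9, 28.3 and 44.5 CPM against 60.6, 76.8 and 73.0 CPM (-1.01 ± 0.19, adjusted p = 0.00564). Phlda3, a p53-induced repressor of AKT, fell by 1.12 (SE 0.20, adjusted p = 0.00496). The 2 textbook reporters of p53 did not pass with all libraries and were chosen after their values were seen. Mdm2, the ligase that degrades p53, was at 75.8 to 85.3 CPM under cisplatin and 85.7 to 98.4 CPM under PBS (-0.17, adjusted p = 0.245). Cdkn1a, the cell cycle inhibitor p21, measured 88.2, 86.7 and 539 CPM under cisplatin and 257, 293 and 287 CPM under PBS. Cisplatin SSM 3 was thus above and the other two below every PBS library. The fold change was -0.23 ± 0.70 (adjusted p = 0.841) with all libraries and -1.66 (adjusted p = 0.0251) without that library.

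Among genes for interstrand crosslink and excision repair 7 of 30 rose and 4 fell with all libraries, and 10 rose and 7 fell without cisplatin SSM 3. Fancl, the ubiquitin ligase of the Fanconi anemia core complex, measured 30.6, 36.3 and 21.6 CPM under cisplatin and 12.1, 11.4 and 9.30 CPM under PBS (1.43 ± 0.21, adjusted p = 0.00182). Fancc, another core complex member, went the other way, with 9.55, 6.59 and 4.38 CPM against 33.8, 35.9 and 32.9 CPM (-2.32 ± 0.26, adjusted p = 0.000496). The summed list was nearly level, with 481 to 502 CPM under cisplatin and 440.4 to 502 CPM under PBS. Brca1, which works in homologous recombination, measured 4.49, 7.18 and 14.2 CPM under cisplatin and rested on 3 counts over the 3 PBS libraries, a 75.1-fold ratio with a 95% counting interval of 25.4 to 367 (adjusted p = 0.000516), and 51.6-fold (17.2 to 254) without cisplatin SSM 3. Fan1, a nuclease for crosslinks, had 0 counts in all PBS libraries and 1.18 to 5.48 CPM under cisplatin, at least 7.92-fold higher against a floor of 3 counts per library and at least 4.01-fold higher without cisplatin SSM 3. Such intervals and floors cover counting error only.

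In DNA damage signalling 4 of 20 genes rose and 3 fell with all libraries, and 4 rose and 6 fell without cisplatin SSM 3. Nbn, a subunit of the MRN complex that senses double-strand breaks, measured 43.7, 42.2 and 39.5 CPM under cisplatin and 24.2, 21.5 and 22.4 CPM under PBS (0.88 ± 0.18, adjusted p = 0.00797). Rad50, its partner in that complex, measured 23.6, 21.2 and 37.1 CPM against 49.8, 51.6 and 46.0 CPM (-0.85 ± 0.19, adjusted p = 0.0123). Members of 1 complex therefore differed in direction, although the call of Rad50 was lost without cisplatin SSM 1 or without PBS 2 (highest adjusted p = 0.0517, without PBS 2). Topbp1, an activator of the kinase ATR, rose by 0.80 (SE 0.17, adjusted p = 0.00887), and Trp53bp1, which steers break repair, fell by 0.94 (SE 0.21, adjusted p = 0.0116).

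Genes for platinum transport, metallothionein and glutathione held 4 higher and 0 lower of 17 with all libraries, and 6 higher and 3 lower without cisplatin SSM 3. Atp7a, a copper exporter that can also carry platinum drugs, measured 23.7, 27.4 and 20.2 CPM under cisplatin and 8.72, 8.21 and 10.4 CPM under PBS (1.38 ± 0.18, adjusted p = 0.00111). Slc31a1, the copper importer CTR1 through which cisplatin can enter cells, measured 61.8, 62.0 and 32.4 CPM against 27.4, 22.2 and 22.9 CPM (1.11 ± 0.22, adjusted p = 0.00724). Both lay above PBS in every cisplatin library. Mt1, a metallothionein that binds metal ions, was at 36.3 to 47.7 CPM against 20.4 to 20.9 CPM (1.03 ± 0.24, adjusted p = 0.0148), and Abcc5, a drug efflux pump, at 27.5 to 33.9 CPM against 16.6 to 17.3 CPM (0.83 ± 0.21, adjusted p = 0.0185). The calls of Mt1 and Abcc5 were lost when any 1 PBS library was left out (highest adjusted p = 0.0563, without PBS 2, and 0.0653, without PBS 1).

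The oxidative stress list held 4 higher and 0 lower of 15 with all libraries and 8 higher and 1 lower without cisplatin SSM 3. Cat, the catalase that clears hydrogen peroxide, measured 303, 291 and 215 CPM under cisplatin and 144.5, 135 and 138 CPM under PBS (0.95 ± 0.14, adjusted p = 0.00190). G6pdx, which supplies NADPH, rose by 0.51 (SE 0.11, adjusted p = 0.00874), and Gpx4, which reduces lipid peroxides, by 0.51 (SE 0.11, adjusted p = 0.00946). These were among the smallest changes named here and did not overlap with PBS. Apoptosis regulators were mixed, with 4 of 26 higher and 2 lower with all libraries and 7 higher and 5 lower without cisplatin SSM 3.

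**Figure D3:**
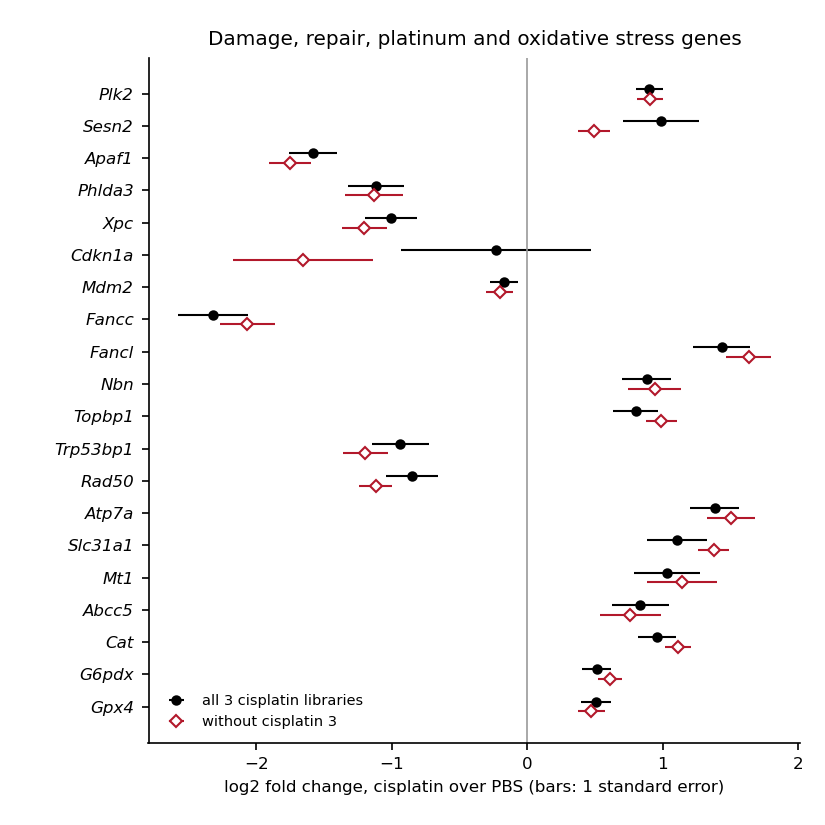
Log2 fold change of cisplatin over PBS with 1 standard error for p53 target, repair, damage signalling, platinum transport and oxidative stress genes, with all 3 cisplatin libraries (filled circles) and without cisplatin SSM 3 (open diamonds). Most pairs of points lie close together on one side of 0, and Cdkn1a moves from -0.23 to -1.66 when the library is left out.

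Macrophage identity genes held 3 higher and 0 lower of 16 with all libraries and 8 higher and 0 lower without cisplatin SSM 3. Siglec1, given above, rose by 3.39 (SE 0.97, adjusted p = 0.0306), but the call was lost when cisplatin SSM 1, cisplatin SSM 2 or any 1 PBS library was left out (highest adjusted p = 0.106, without PBS 1). Cd14, a coreceptor for endotoxin, measured 130.2, 109 and 223 CPM under cisplatin and 24.3, 27.2 and 25.3 CPM under PBS (2.59 ± 0.36, adjusted p = 0.00149). Tnfrsf11a, the receptor RANK that sinus macrophages need for their upkeep, measured 25.6, 28.3 and 29.9 CPM against 7.85, 8.21 and 5.88 CPM (1.93 ± 0.38, adjusted p = 0.00661). Both were higher in all 3 cisplatin libraries. Adgre1, which encodes F4/80 and is known as high on MSM and low on SSM, measured 156, 165 and 505 CPM against 281, 294 and 275 CPM, so cisplatin SSM 3 was above and the other two were below PBS. Itgam (CD11b) showed the same split, at 187, 182 and 531.5 CPM against 215 to 223 CPM. Cd68, a lysosomal glycoprotein, split the other way, at 399, 399 and 82.8 CPM against 257 to 276 CPM. Of the MSM markers 1 of 11 rose with all libraries and 9 of 11 without cisplatin SSM 3. Cd209b itself passed with all libraries (6.87 ± 2.15, adjusted p = 0.0428) but not when any 1 library other than cisplatin SSM 3 was left out (highest adjusted p = 0.1305, without PBS 2). Without cisplatin SSM 3 the change of Cd209b was 7.47. Marco, a scavenger receptor, measured 982, 906 and 3.95 CPM against 17.9 to 20.3 CPM, and Lyve1, a hyaluronan receptor, 19.5, 17.1 and 0 CPM against 3.49 to 4.90 CPM.

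Scavenger and efferocytosis receptors held 5 lower and 0 higher of 23 with all libraries, and 7 lower and 6 higher without cisplatin SSM 3. Scarf1, a receptor for apoptotic cells, measured 1.26, 1.28 and 3.07 CPM under cisplatin and 18.4, 21.3 and 25.0 CPM under PBS (-3.52 ± 0.36, adjusted p = 0.000332). Stab1, the endocytic receptor stabilin-1, measured 1.49, 1.28 and 3.95 CPM against 12.96, 15.8 and 14.3 CPM (-2.68 ± 0.39, adjusted p = 0.00172, and -3.35 without cisplatin SSM 3). Msr1, the class A scavenger receptor, fell less, from 45.1 to 50.1 CPM down to 25.8 to 30.1 CPM (-0.71 ± 0.13, adjusted p = 0.00432). Fcgr4, an activating receptor for IgG, measured 2.88, 2.76 and 5.81 CPM against 20.2, 15.8 and 16.4 CPM (-2.19 ± 0.44, adjusted p = 0.00747). It was 1 of 12 Fc gamma and complement receptors called with all libraries, and 1 was higher and 1 lower without cisplatin SSM 3. Of 29 lysosome genes 1 rose and 2 fell with all libraries, and 9 rose and 4 fell without cisplatin SSM 3. The 2 that fell with all libraries were Ctsd, the protease cathepsin D, at 806, 836.5 and 1161 CPM against 1779, 1930 and 1927 CPM (-1.01 ± 0.17, adjusted p = 0.00363), and Lipa, the acid lipase that frees cholesterol from taken-up lipoprotein, at 84.6 to 87.9 CPM against 135 to 142 CPM (-0.70 ± 0.15, adjusted p = 0.00870).

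Cholesterol genes held 5 higher and 1 lower of 24 with all libraries and 6 higher and 3 lower without cisplatin SSM 3. Abcg1, which exports cholesterol, measured 74.6, 76.2 and 44.8 CPM under cisplatin and 17.8, 19.6 and 17.6 CPM under PBS (1.83 ± 0.23, adjusted p = 0.000752). Sqle, which catalyses an early step of sterol synthesis, rose by 1.82 (SE 0.44, adjusted p = 0.0160), and the call was lost without cisplatin SSM 1 or any 1 PBS library (highest adjusted p = 0.0633, without PBS 2). An export gene and a synthesis gene were thus both among those that rose. Iron and heme genes held 3 higher and 0 lower of 17 with all libraries and 10 higher and 1 lower without cisplatin SSM 3. Fth1, the iron-storing ferritin heavy chain, measured 4778, 4786 and 3482 CPM against 2649, 2726 and 2722 CPM (0.69 ± 0.19, adjusted p = 0.0246), a call lost without any 1 library other than cisplatin SSM 3 (highest adjusted p = 0.0852, without cisplatin SSM 1).

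MHC class II presentation depended on the library that stood apart. The summed list measured 29805, 29397 and 5389 CPM under cisplatin and 14042, 15855 and 15726 CPM under PBS. Cisplatin SSM 1 and 2 were above and cisplatin SSM 3 below every PBS library. No member of 10 was called with all libraries, and 10 of 10 rose without cisplatin SSM 3. For H2-DMa, which loads peptide onto class II molecules, the fold change was 0.75 ± 0.48 (adjusted p = 0.276) with all libraries and 1.22 (adjusted p = 0.00175) without it.

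In the IL-1 family 1 of 14 genes rose and 3 fell with all libraries. Il1a (ENSMUSG00000027399, chr2:129299610-129309972), an alarmin released by dying or activated cells, measured 63.8, 63.5 and 35.8 CPM under cisplatin and 8.97, 9.83 and 11.3 CPM under PBS (2.44 ± 0.21, adjusted p = 0.000160). Every cisplatin library was above every PBS library. Il18bp, the decoy that binds IL-18, measured 39.6, 43.3 and 19.9 CPM against 88.1, 94.9 and 85.4 CPM (-1.38 ± 0.23, adjusted p = 0.00347). Il1rap, the accessory chain that IL-1 and IL-33 receptors share, fell by 1.32 (SE 0.42, adjusted p = 0.0443), and by 1.93 without cisplatin SSM 3, and Sigirr, an inhibitory member of the family, by 0.80 (SE 0.24, adjusted p = 0.0394). The calls of Il1rap and Sigirr were lost when any 1 library other than cisplatin SSM 3 was left out (highest adjusted p = 0.138 and 0.137, both without cisplatin SSM 2).

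Il33, the alarmin named in the title of the series, was low and did not pass with all libraries. It measured 7.94, 7.68 and 0.11 CPM under cisplatin and 2.99, 2.53 and 1.71 CPM under PBS. Cisplatin SSM 1 and 2 were above all PBS libraries and cisplatin SSM 3 was below them. The log2 fold change was 1.11 ± 1.33 (adjusted p = 0.571) with all libraries and 1.71 (adjusted p = 0.226) without cisplatin SSM 3. It passed when LN PBS SSM 2, which enters the shared spread, was left out as well (1.70, adjusted p = 5.56e-05). That fit called 6096 genes higher and 6444 lower, against 4300 and 4510 without cisplatin SSM 3 alone, so a pass there is common. Its estimated coefficient of variation between replicates was 0.072, against 0.284 without cisplatin SSM 3 alone. Il1rl1, which encodes the receptor ST2 for the Il33 product, measured 12.8, 15.5 and 63.3 CPM under cisplatin. Under PBS it measured 13.6, 13.6 and 15.2 CPM. Only cisplatin SSM 3 stood away from the rest, and the fold change was 1.11 ± 0.66 (adjusted p = 0.242) with and 0.02 (adjusted p = 0.988) without that library.

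Among chemokines and their receptors 3 of 22 rose and 2 fell with all libraries, and 7 rose and 5 fell without cisplatin SSM 3. Ccl2, which draws monocytes, measured 49.8, 49.0 and 96.1 CPM under cisplatin and 1.49, 2.03 and 1.22 CPM under PBS (5.34 ± 0.69, adjusted p = 0.000945). Ccl7, a neighbouring chemokine with the same receptor, measured 93.6, 109 and 70.2 CPM against 1.37, 0.608 and 0.979 CPM (6.53 ± 1.35, adjusted p = 0.00848). Both were at or below 2.03 CPM in every PBS library. Cxcr3, the receptor for Cxcl9, measured 14.6, 16.3 and 17.4 CPM against 52.96, 62.2 and 54.5 CPM (-1.81 ± 0.16, adjusted p = 0.000192). Ackr3, a scavenging receptor for CXCL12, was at or below 0.329 CPM under cisplatin and at 6.11 to 12.1 CPM under PBS (-5.43 ± 0.88, adjusted p = 0.00294), a change of -6.11 without cisplatin SSM 3 and of -4.83 without cisplatin SSM 2. Ccr7, which guides dendritic and T cells to the node, rose from 265 to 318 CPM to 1085 to 1348 CPM (2.06 ± 0.48, adjusted p = 0.0140), a call lost without any 1 PBS library (highest adjusted p = 0.0591, without PBS 1).

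Toll-like receptors and adaptors held 5 higher and 3 lower of 19 with all libraries and 7 higher and 6 lower without cisplatin SSM 3. Tlr5, the sensor of flagellin, had 0 counts under PBS and 23.7, 26.5 and 0.658 CPM under cisplatin, at least 48.6-fold higher with all libraries and at least 72.0-fold without cisplatin SSM 3 (adjusted p = 0.00788 with all). Tlr8, an endosomal RNA sensor, rested on 3 PBS counts, a 56.5-fold ratio with a 95% counting interval of 19.0 to 276.5 (adjusted p = 0.000496). Tlr3, the sensor of double-stranded RNA, fell by 1.92 (SE 0.25, adjusted p = 0.000993), from 9.92 to 12.3 CPM down to 2.41 to 3.40 CPM. Among costimulatory and checkpoint ligands 3 of 14 rose and 2 fell with all libraries, and 5 rose and 6 fell without cisplatin SSM 3. Pdcd1lg2 (ENSMUSG00000016498, chr19:29410919-29471161), the PD-1 ligand PD-L2, measured 19.2, 18.8 and 13.4 CPM against 2.62, 2.33 and 2.20 CPM (2.84 ± 0.23, adjusted p = 0.000122). Tnfsf4, the ligand of OX40, had 0 counts under PBS and 2.64 to 4.28 CPM under cisplatin, at least 9.26-fold higher (adjusted p = 0.00598). Lgals9, the lectin galectin-9, measured 198, 196 and 171 CPM against 359, 382 and 378 CPM (-0.99 ± 0.11, adjusted p = 0.000496), and Cd276, the ligand B7-H3, 1.38 to 1.48 CPM against 13.7 to 15.8 CPM (-3.33 ± 0.53, adjusted p = 0.00282).

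The NF-kB list held 1 higher and 0 lower of 24 with all libraries and 1 higher and 5 lower without cisplatin SSM 3, and its median log2 fold change went from 0.05 to -0.72. Rel, the subunit c-Rel, measured 139.6, 144 and 111 CPM against 76.5, 63.0 and 66.1 CPM (0.94 ± 0.15, adjusted p = 0.00236). The summed list measured 4102, 3943 and 13799 CPM under cisplatin and 7099 to 7708 CPM under PBS. The heat shock list held 2 higher and 5 lower of 16 with all libraries and 4 higher and 6 lower without cisplatin SSM 3. Hspa1a, an inducible HSP70, measured 17.1, 14.5 and 65.8 CPM against 220.2, 276 and 285 CPM (-3.00 ± 0.56, adjusted p = 0.00540, and -4.03 without cisplatin SSM 3), while Bag3, its cochaperone, rose by 0.98 (SE 0.18, adjusted p = 0.00487) and Hspa9, the mitochondrial HSP70, by 0.52 (SE 0.12, adjusted p = 0.0125). Trib3, a target of the integrated stress response, was at 1.75 to 4.72 CPM against 0.101 to 0.490 CPM (3.69 ± 0.56, adjusted p = 0.00221, and 4.34 without PBS 3), and Dnajb11, a chaperone of the endoplasmic reticulum, fell by 0.52 (SE 0.09, adjusted p = 0.00395). Cell cycle and replication genes held 7 higher and 1 lower of 35 with all libraries and 9 higher and 2 lower without cisplatin SSM 3. Cdk1, the mitotic kinase, measured 36.2, 36.2 and 6.03 CPM against 3.24, 3.24 and 2.82 CPM (3.07 ± 0.59, adjusted p = 0.00610), and E2f1, an activator of S phase genes, rose by 1.60 (SE 0.27, adjusted p = 0.00348). Cdc45, a part of the replicative helicase, rested on 1 PBS count, a 227-fold ratio with a 95% counting interval of 40.4 to 9012 (314-fold without cisplatin SSM 3), and Mcm2, of the same helicase, fell by 1.00 (SE 0.17, adjusted p = 0.00364). Subunits of 1 helicase again differed in direction.

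Markers of other cells moved with the treatment, and their part in the results above was not tested. Mast cell and basophil markers were higher at 9 of 11 tested genes with all libraries and at 9 of 11 without cisplatin SSM 3, against 13% and 23.9% of all genes. Their sum was 2022, 2064 and 4145 CPM under cisplatin and 168 to 173 CPM under PBS. Fcer1a, the high-affinity IgE receptor, measured 24.4, 28.0 and 53.2 CPM against 0.125, 0.203 and 0.245 CPM (7.42 ± 0.45, adjusted p = 2.55e-05). Cpa3, a mast cell carboxypeptidase, measured 501, 508 and 588 CPM against 8.47, 4.66 and 5.39 CPM (6.43 ± 0.97, adjusted p = 0.00215). Gata2, a factor of mast cells and basophils, rose by 3.58 (SE 0.44, adjusted p = 0.000760), and by 2.77 without cisplatin SSM 3. The mast cell protease Cma1 had 0 counts in every PBS library, and Mcpt8, the basophil protease, was too low to be tested. In the LN the same sum was 644.6 to 1288.5 CPM under PBS and 78.0 to 80.1 CPM under cisplatin.

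T cell markers were lower at 4 of 18 genes with all libraries and at 17 of 18 without cisplatin SSM 3, with sums of 970.5, 966 and 4663 CPM under cisplatin and 4812 to 5024 CPM under PBS. Cd3e, a chain of the T cell receptor complex, measured 58.5, 64.7 and 477 CPM against 562, 601 and 607 CPM, with an adjusted p of 0.00375 only without cisplatin SSM 3. Cd8a, the coreceptor of cytotoxic T cells, measured 3.57, 4.92 and 11.6 CPM against 59.3, 60.8 and 59.5 CPM (-3.16 ± 0.52, adjusted p = 0.00306, and -3.79 without cisplatin SSM 3), and Foxp3, the factor of regulatory T cells, fell by 2.14 (SE 0.42, adjusted p = 0.00648). NK and cytotoxic markers held 3 lower of 12 with all libraries and 9 without cisplatin SSM 3. B cell markers had 0 calls of 16 with all libraries and 13 higher without cisplatin SSM 3, with sums of 6580, 6640 and 979 CPM under cisplatin and 1636 to 1687 CPM under PBS.

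Neutrophil markers held 4 higher of 12 with and without cisplatin SSM 3. Ly6g, Mpo and Elane, which are also on the list, were too low to be tested. The sums were 999, 1081 and 9071 CPM under cisplatin and 479 to 496 CPM under PBS. Mmp8, the neutrophil collagenase, rose by 3.08 (SE 0.66, adjusted p = 0.0101), while S100a8, a calprotectin subunit, measured 136, 162 and 1031 CPM against 48.3 to 65.3 CPM without passing (adjusted p = 0.0999). Among 8 monocyte markers 1 rose and 1 fell with all libraries, and 2 rose and 3 fell without cisplatin SSM 3. The marker that fell with all libraries was Ly6c2, the Ly6C antigen, at 43.7, 47.2 and 82.9 CPM against 388, 372 and 385 CPM (-2.72 ± 0.33, adjusted p = 0.000718). Conventional dendritic cell markers held 3 higher and 4 lower of 12 with all libraries (median log2 fold change -0.63) and 4 higher and 8 lower without cisplatin SSM 3 (-1.30). Xcr1, a receptor of the cross-presenting subset, measured 7.13, 6.30 and 6.36 CPM against 76.1, 62.7 and 59.5 CPM (-3.32 ± 0.46, adjusted p = 0.00136), and Cadm1, of the same subset, fell by 1.61 (SE 0.20, adjusted p = 0.000792). Zbtb46, a factor of dendritic cells, rose by 2.33 (SE 0.38, adjusted p = 0.00306; 1.74 without cisplatin SSM 3), and Cd209a, of the other subset and of monocyte-derived cells, by 3.28 (SE 0.38, adjusted p = 0.000555). Migratory dendritic cell markers held 5 higher and 0 lower of 12 with all libraries and 4 higher and 1 lower without cisplatin SSM 3, among them Cd83, an activation marker, at 2095, 2093 and 1127 CPM against 443 to 445.5 CPM (2.00 ± 0.40, adjusted p = 0.00736). Summed stroma markers lay between 55.4 and 70.5 CPM in the 6 libraries, those of red cells and platelets between 33.8 and 57.0 CPM and those of melanocytes between 81.3 and 344.5 CPM, with Sox10, a defining melanocyte factor, at 0 in all 6.

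**Figure D4:**
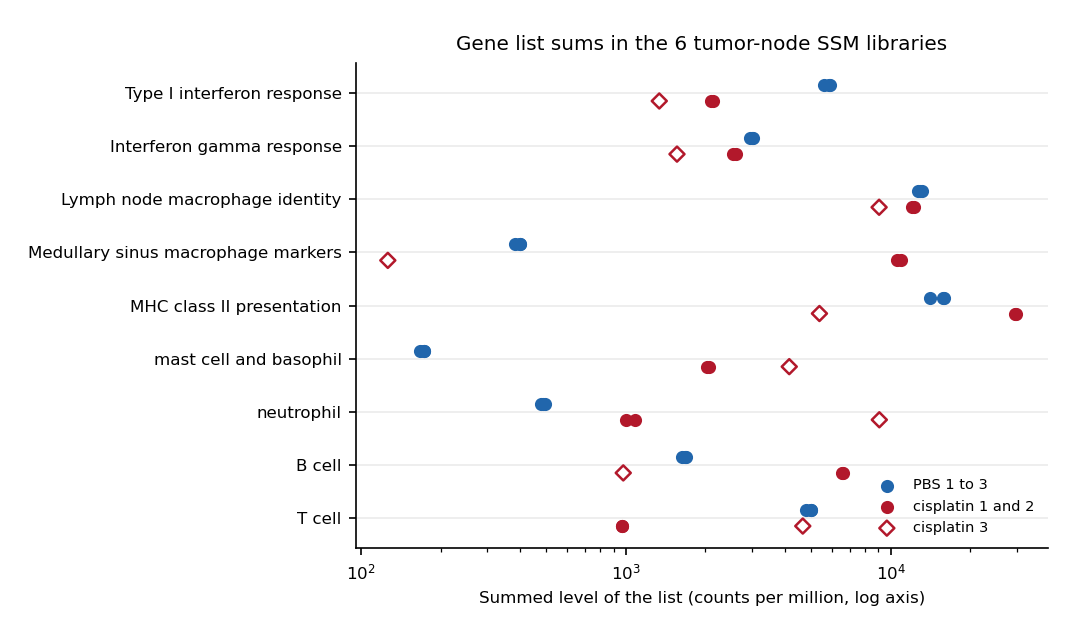
Summed CPM of 9 gene lists in the 6 libraries on a log axis, with PBS in blue and cisplatin in red, cisplatin SSM 3 as an open diamond. Type I interferon sums of all 3 cisplatin libraries lie below PBS and mast cell sums of all 3 lie above, while for MSM markers, MHC class II, B cell and T cell lists cisplatin SSM 3 lies away from the other two.

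The largest rises included mast cell proteases. Cma1, which encodes a chymase, measured 443, 431 and 716 CPM under cisplatin and had 0 counts in each PBS library, at least 1522-fold higher (adjusted p = 0.00490) and at least 1255-fold without cisplatin SSM 3. Tpsb2, a tryptase, measured 429, 474 and 1013 CPM against 0 to 0.249 CPM. Mcpt4, another chymase, rested on 2 PBS counts, a 5678-fold ratio with a 95% counting interval of 1571 to 46887. These proteases belong to families of close copies, so their separate levels could depend on how reads were split. Mrgprb1, a receptor by which mast cells answer peptides and drugs, was at least 149-fold higher, with 37.6, 46.3 and 71.6 CPM under cisplatin. Slc45a3, a sugar transporter, measured 63.4, 67.3 and 146 CPM and was at least 264-fold higher.

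Other large rises differed between the cisplatin libraries. Ltf, the lactoferrin of neutrophil granules, measured 161, 154.5 and 1887 CPM and rested on 2 PBS counts, a 9394-fold ratio with a 95% counting interval of 2600 to 77577, and 2049-fold (567 to 16931) without cisplatin SSM 3. Dll1, a Notch ligand, measured 10.3, 9.45 and 93.6 CPM and was at least 108-fold higher with all libraries and at least 28.4-fold higher without cisplatin SSM 3. Bpifb2, of the lipid-binding BPI family, measured 459.7, 446 and 2.30 CPM and was at least 869-fold higher, and at least 1300-fold without that library. Rasd1, a Ras-like protein induced by glucocorticoid, measured 32.5, 28.1 and 1.75 CPM and was at least 59.7-fold higher, and at least 87.1-fold without it. The call of Ltf (highest adjusted p = 0.118, without PBS 3) and that of Bpifb2 (0.0614, without PBS 2) were lost when any 1 PBS library was left out.

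Of the largest falls, those printed here were fairly even between the cisplatin libraries. Some others, not printed, had counts within the cisplatin group only in cisplatin SSM 3, and their fold changes grew without that library. Peg3, an imprinted zinc finger gene, had 0 counts under cisplatin and 11.1, 12.6 and 9.79 CPM under PBS, at least 34.5-fold lower (adjusted p = 0.00624). Pdzk1ip1 likewise had 0 counts under cisplatin and 7.47 to 9.22 CPM under PBS, at least 25.1-fold lower (adjusted p = 0.000496). Pde10a, a phosphodiesterase of cyclic nucleotides, was at or below 0.219 CPM against 8.47, 13.3 and 12.6 CPM (-6.21 ± 0.57, adjusted p = 0.000233), and Spon1, the matrix protein spondin-1, measured 1.03, 0.984 and 0.329 CPM against 24.5, 27.7 and 29.3 CPM (-5.09 ± 0.94, adjusted p = 0.00515). All of these lay below PBS in every cisplatin library, which was a condition of naming them by size.

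Whether cisplatin acted alike in the 2 nodes was asked with the interaction term of the same model, the cisplatin effect in the TDLN minus that in the LN. It passed for 2262 genes (13.4%) in the higher and 1387 (8.21%) in the lower direction, and its median over all genes was 0.12. Of the 35 type I interferon genes 29 had a lower effect in the TDLN and 0 a higher one, with a median difference of -2.54. Summed, the list went from 2940, 3860 and 2932 CPM under PBS to 5280, 5357 and 5277 CPM under cisplatin in the LN, while it was lower under cisplatin in the TDLN, as given above. In the LN group PBS SSM 2 also stood apart, with an MSM marker sum of 215 CPM against 12032 and 11928 CPM in LN PBS SSM 1 and 3. Markers of other cells also differed between the LN groups. B cell sums were 5360, 709 and 5265 CPM under PBS and 561 to 568 CPM under cisplatin. Melanocyte and melanoma sums were 113, 422 and 119 CPM under PBS and 2071 to 2181 CPM under cisplatin. In the TDLN libraries they were 81.3 to 344.5 CPM. Sox10, at 0 in LN PBS, measured 11.5 to 12.8 CPM in LN cisplatin. Some sums lay close across nodes and treatments. Type I interferon sums were 5277 to 5357 CPM in LN cisplatin and 5624 to 5889 CPM in TDLN PBS. Mast cell sums were 78.0 to 80.1 and 168 to 173 CPM in the same order. B cell sums were 6580 and 6640 CPM in TDLN cisplatin SSM 1 and 2 and 5360 and 5265 CPM in LN PBS SSM 1 and 3. Melanocyte sums did not follow this pattern. The part of such cells, or of the node labels, in the node difference was not tested.

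For Usp18 the LN libraries measured 50.3, 51.6 and 44.9 CPM under PBS and 112, 108 and 102 CPM under cisplatin, and the node difference was -3.72 ± 0.20 (adjusted p = 1.08e-05). Ifit2 went from 32.8, 51.6 and 35.1 CPM to 116, 106 and 108 CPM in the LN, with a difference of -5.26 ± 0.50 (adjusted p = 0.000276). Zbp1 and Parp14 also rose in the LN, with differences of -3.11 and -2.11. All of them therefore differed between cisplatin and PBS in opposite directions in the 2 nodes as labelled. Msr1 rose in the LN from 37.2, 49.5 and 43.7 CPM to 192, 182 and 194 CPM and fell in the TDLN, a difference of -2.83 ± 0.18 (adjusted p = 2.61e-05). Ly6c2 rose in the LN from 69.4, 155 and 73.9 CPM to 398, 393 and 385 CPM, a difference of -4.70.

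In the reverse direction, Il1a measured 124, 132 and 129 CPM under PBS and 18.9, 18.4 and 19.2 CPM under cisplatin in the LN, and the node difference was 5.20 ± 0.29 (adjusted p = 1.50e-05). Pdcd1lg2 fell in the LN from 11.9, 10.2 and 12.2 CPM to 5.90, 5.20 and 4.88 CPM, a difference of 3.94 ± 0.31 (adjusted p = 0.000129). Both rose in the TDLN. Without cisplatin SSM 3 and LN PBS SSM 2 together, the differences of Usp18, Ifit2, Msr1, Il1a and Pdcd1lg2 were -3.93, -5.14, -2.98, 5.40 and 4.16.

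**Figure D5:**
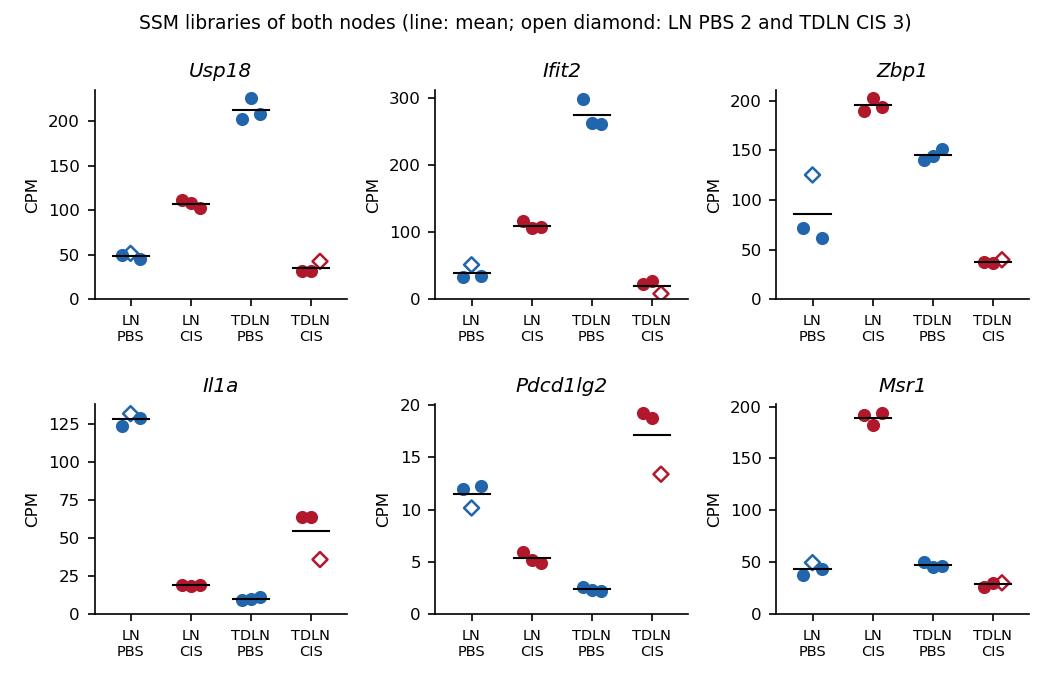
CPM of 6 genes in the 12 SSM libraries of both nodes, PBS in blue and cisplatin in red, with the mean of each group as a line and the libraries that stand apart, LN PBS 2 and TDLN CIS 3, as open diamonds. Usp18, Ifit2, Zbp1 and Msr1 are higher under cisplatin in the LN and lower in the TDLN, and Il1a and Pdcd1lg2 show the reverse.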

How the data were processed

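RNA of polyA type from sorted cells was sequenced by the submitters with a stranded kit, per the labels' protocols. Reads were aligned with STAR to GRCm38 and quantified with RSEM 1.3.0, and DESeq2 1.38.3 was used, per the submitters' processing notes. The expected counts were made by the authors and deposited as whole numbers, for 55487 genes, and 99.4% carried a GENCODE vM21 symbol. A table of TPM deposited by the authors with decimals dropped is treated as a score and was not tested. The dendritic cell tables were not used here.

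Counts of the 12 SSM libraries were filtered with filterByExpr, scaled with TMM and fitted in 1 model of 4 groups with edgeR 4.0.16 (R 4.3.3), with quasi-likelihood tests and Benjamini-Hochberg adjustment over all tested genes. CPM use the same scaling. Standard errors were derived from the F statistic. The floor for 0 counts is 3 counts per library. DESeq2 1.42.0, its size factors, other filters, a replicate block, the 6 TDLN libraries alone and each left-out library were tried. The fitting script was tested on simulated data. Python 3.11.15, pandas 2.3.3 and scipy computed tables, and matplotlib the figures.

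The libraries, lists and genes were chosen with earlier results of these data known. Named genes were Il33, Il1rl1, genes with the largest changes in both fits at a mean of at least 4 CPM with no overlap of groups, up to 4 members per list by p, and cell type markers, leaving out predicted genes, receptor segments and sex-chromosome genes used for sexing. A subset is printed. Irf7 and Ifi35 were also named after their values were seen. Some items are not reported here.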

Additional observations from a re-analysis of the deposited data

Results flagged for a closer look

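The cisplatin effect differed between the 2 nodes, by the interaction term, at 8 genes whose node difference is given. It was lower in the TDLN for Usp18 (-3.72 on the log2 scale), Ifit2 (-5.26), Zbp1 (-3.11), Parp14 (-2.11), Msr1 (-2.83) and Ly6c2 (-4.70). It was higher in the TDLN for Il1a (5.20) and Pdcd1lg2 (3.94).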

How the results depend on the processing

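Of 113 named genes, 98 were called for cisplatin in the TDLN, and 83 of these kept their direction and call in every alternative run. None of the called genes reversed. The call of 13 was lost without 1 library and that of 2 only elsewhere: Irf1 without a low-count filter and Cxcl9 with the 6 TDLN libraries alone. Among genes without a call, the sign turned for 4 without cisplatin SSM 1 or 2, with ranges over single left-out libraries of -1.66 to 0.18 for Cdkn1a, -0.037 to 0.49 for Csf1r, -0.80 to 0.24 for Adgre1 and -0.13 to 0.61 for Cd68. It turned for Itgam without cisplatin SSM 3 (range -0.23 to 0.73) and without that library and LN PBS SSM 2 (-0.23). The cause was not tested.

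The count of genes higher under cisplatin, 2203, became 1413 with the 6 TDLN libraries alone, 6096 without cisplatin SSM 3 and LN PBS SSM 2, and 1025 to 4300 without 1 library. The count lower, 1680, became 6444 without both and 793 to 4510 without 1 library, the highest in each case without cisplatin SSM 3. With a 2-fold minimum the counts were 2615 and 3261 without cisplatin SSM 3. Counts of the node difference became 5924 and 5683 without both, and ranged from 1307 to 3961 and from 841 to 3479 without 1 library. The count of type I interferon genes that fell, 28, was 22 to 35 over all alternatives. Same-numbered libraries did not deviate together (correlations of -0.016, -0.074 and 0.054 over 8069 genes), and other-numbered pairs ranged from -0.112 to 0.13. This cannot tell whether the numbers mark pairs. Cisplatin SSM 3 differed far more from cisplatin SSM 1 and 2 than these did from each other, which shapes the deviations of that group. With the replicate block, 1394 genes were higher and 1082 lower and the node difference was higher at 1386, and 7 named calls were lost. Depth limits genes near 0 counts.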
